A study of Mus musculus with 4 samples.

Results

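Axon guidance genes encode the secreted and membrane-bound cues that steer growing axons and the receptors that read them. The genes described here were taken from the deposited table by gene symbol. They are the semaphorins of classes 3 to 7, plexins, neuropilins, ephrins and Eph receptors, Slits, Robos, netrins and netrin-Gs, Unc5 receptors and Dcc. This rule, which uses no measured value, took 69 of the 15713 genes in the table. Of 71 protein-coding genes of these names in the mouse annotation, Efna4 and Epha1 were not analysed here.

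Hippocampal RNA of mice of the inbred strain C57BL/6 was sequenced at an age of 11 to 12 weeks. The control group, 2 libraries, came from mice labelled untreated. The other 2 libraries came from mice labelled as exposed during development to ATO at 5000 ppb; the labels do not spell out ATO, and the series title speaks of arsenic and of offspring. No genotype, sex, route, vehicle or exposure window is given in the sources used here. No label says that replicates came from separate animals or litters. The p-values and intervals below therefore rest on the spread between these libraries, pooled in part across genes, and that spread may be technical.

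In the adult hippocampus many of these proteins sit at synapses, on glia and on blood vessels. Semaphorins bind plexins, and most of class 3 also needs a neuropilin as co-receptor. Ephrins and Eph receptors signal in both directions across a cell contact. Slits act through Robo receptors, and netrin-1 attracts through DCC and repels through UNC5 receptors.

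The control libraries summed to 14832214 and 15078919 counts, the ATO libraries to 17251032 and 16696546; pairs of values here and below are in the order replicate 1, replicate 2. The guidance genes took between 0.371% and 0.384% of these counts. Their counts ran from 19 to 5104 per library, and each of the 69 was above 1 CPM (counts scaled by library total) in at least 2 libraries, as was every gene of the table. All 8 general markers of hippocampal excitatory neurons, all 10 CA1 markers and all 10 dentate granule markers were counted in every library. So were the 8 thalamic and 7 neocortical markers tested, so being counted does not tell the hippocampus from its neighbours. Markers of the choroid plexus, the epithelium that makes cerebrospinal fluid, stood far apart between the groups. All 20 were higher in ATO, and their summed level was 142 and 216 normalised CPM in the controls against 3369 and 4230 in ATO.

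The ATO and control libraries differed in few guidance genes. Sema3b, which encodes a secreted class 3 semaphorin, rose 3.84-fold, and Ephb3, which encodes a receptor for B-type ephrins, fell by 0.58 on the log2 scale. The other 67 did not pass edgeR's quasi-likelihood test at a Benjamini-Hochberg adjusted p under 0.05, adjusted over all 15713 genes. The 2 genes that passed were 2.90% of the 69, against 3.73% of all genes tested. By direction, 1 of 69 was higher (2.87% of all genes) and 1 was lower (0.859% of all genes). An unadjusted p under 0.05 was reached by 13 guidance genes, or 18.8%, against 18.1% of all genes.

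Between these libraries most guidance genes differed little, with narrow intervals. Since the libraries may be technical replicates, the intervals are not limits on the difference between animals. The median log2 fold change of ATO over control was -0.0115 over the 69 genes and -0.0050 over all genes tested. In 51 of the 69 (73.9%) the whole 95% interval of the fold change lay within 1.5-fold in either direction, as it did for 64.5% of all genes. Within 2-fold lay 65 of 69; the other 4 were Sema3b, Robo4 and the EphA receptor genes Epha2 and Epha8, of which the last 2 had at most 53 counts in a library. Both ATO libraries lay outside the range of the controls for 24 of the 69 (34.8%), 10 above and 14 below, against 48.1% of all genes tested, 24.8% above and 23.4% below.

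**Figure D1:**
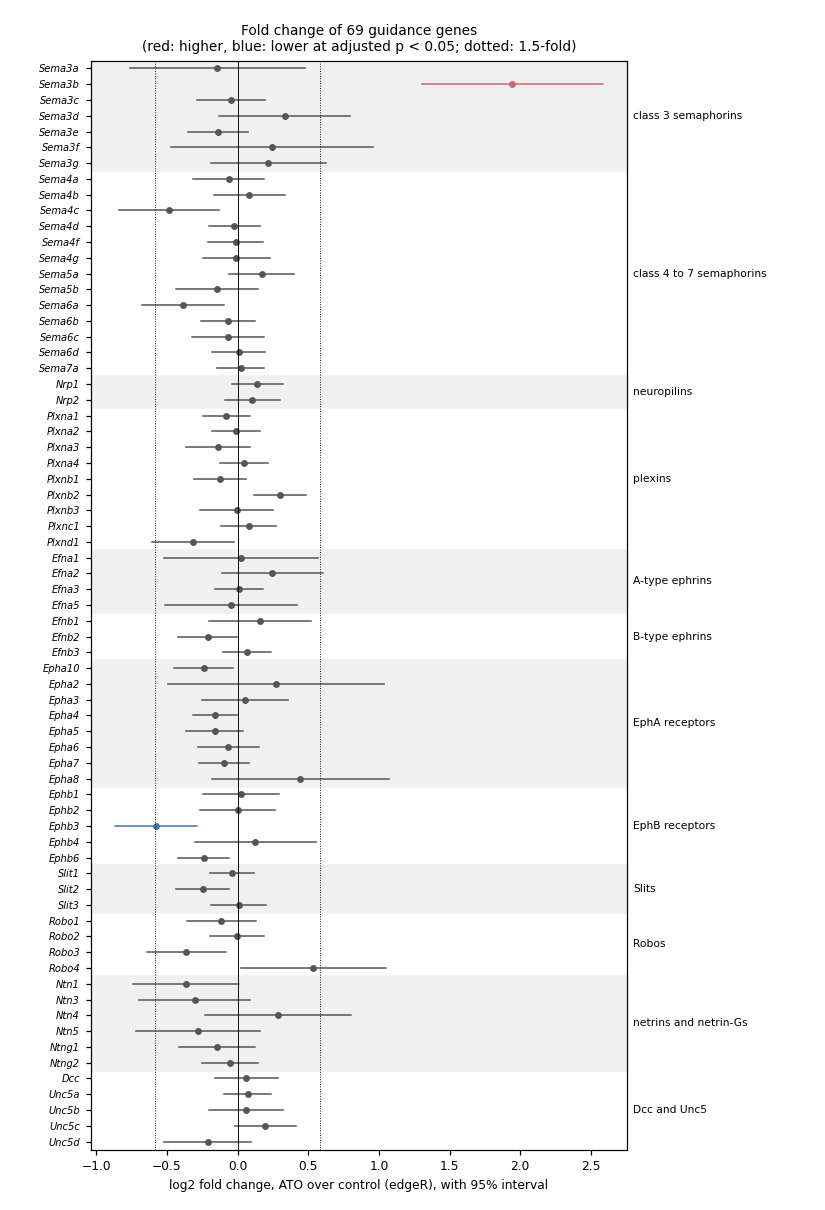
Log2 fold change of ATO over control for each of the 69 guidance genes, by family, with the 95% interval from edgeR (2 libraries per group); dotted lines mark 1.5-fold. Sema3b (1.94) stands apart on the right, Ephb3 (-0.58) is the gene that fell, and 51 intervals lie between the dotted lines.

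Levels were compared between genes on the deposited FPKM scale, which divides counts by gene length and library total. The highest mean levels over the 4 libraries were those of Efnb3 (51.3 FPKM), which encodes ephrin-B3, a membrane-spanning ligand, Slit1 (42.5), a secreted repellent, Sema7a (42.0), a semaphorin anchored to the membrane by a lipid, Epha4 (38.6), an Eph receptor that binds ephrins of both types, and Unc5a (37.9), a netrin receptor. The lowest was the class 3 semaphorin gene Sema3a, at 0.225 FPKM. Efnb3 was highest in each library. The order of Slit1, Sema7a, Epha4 and Unc5a changed from library to library and was not resolved.

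Summed within families, class 4 to 7 semaphorins held 126 and 129 FPKM in the controls and 123 and 129 in ATO. Class 3 semaphorins, all secreted, held 16.4 and 16.2 FPKM in the controls and 15.9 and 18.0 in ATO. All ligand families together held 315 and 321 FPKM in the controls and 317 in both ATO libraries, and the receptor families held 249 and 263 against 248 in both. For ligands the ATO sums lay between those of the controls, and for receptors they lay just below the lower control.

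**Figure D2:**
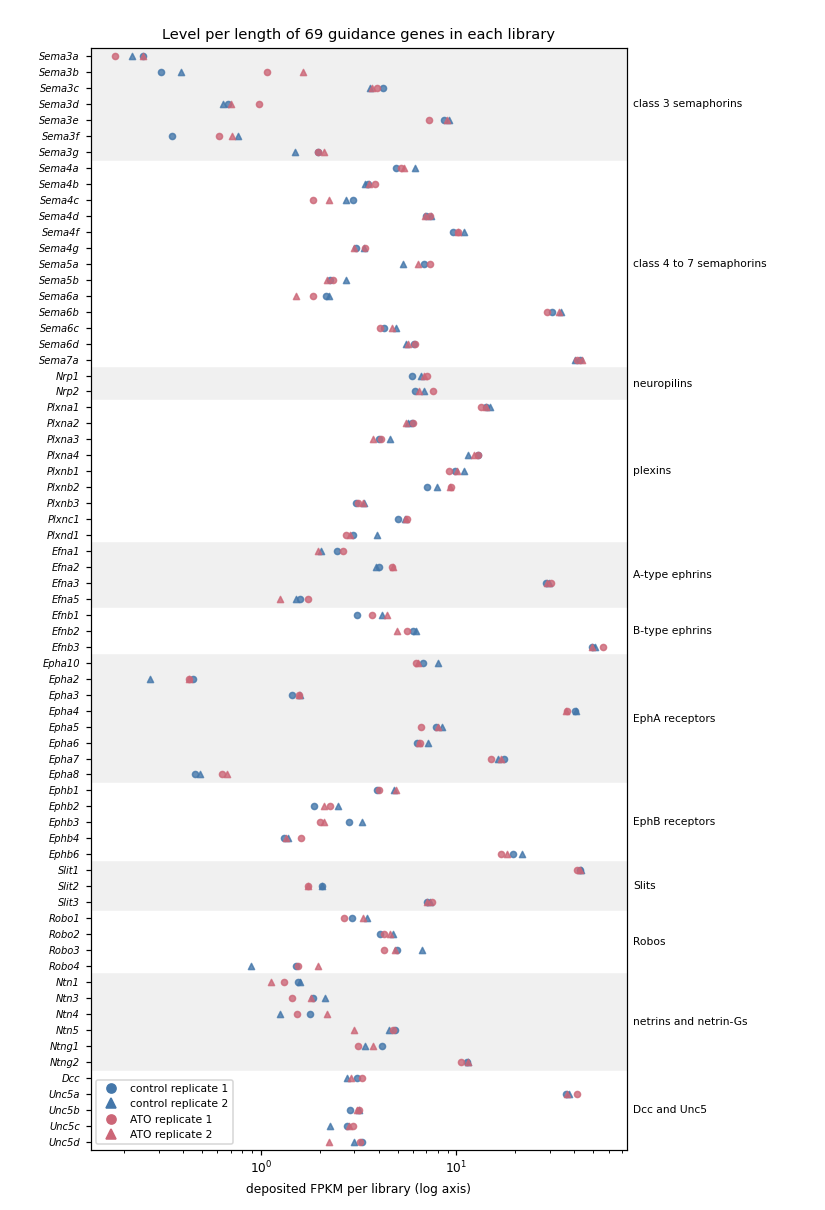
Deposited FPKM of each guidance gene in each of the 4 libraries, on a log axis, by family; circles are replicate 1 and triangles replicate 2. The 4 points of most genes lie close together, Efnb3 is highest in every library, and the ATO points of Sema3b lie clear of its controls.

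Among the secreted semaphorins, Sema3b (ENSMUSG00000057969, chromosome 9 from 107597674 to 107609229, minus strand, GRCm38) encodes semaphorin 3B, which acts through neuropilins and A-type plexins. It had 22 and 28 counts in control replicates 1 and 2 and 88 and 131 in ATO replicates 1 and 2. Both ATO libraries were well above both controls. In normalised CPM the mean went from 1.67 ± 0.256 to 6.47 ± 2.004 (SD, n = 2 per group). This was a log2 fold change of 1.94 with an SE of 0.30, a 95% interval from 1.30 to 2.58 and an edgeR adjusted p of 0.00175. The authors' deposited table gave it a log2 fold change of 1.85 with an adjusted p of 0.00205, and marked it, alone among the 69, as differentially expressed. Its call held when each library was left out in turn, with log2 fold changes from 1.59 without ATO replicate 2 to 2.23 without ATO replicate 1. Its exons overlap no other annotated gene.

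Sema3b was low in both groups, at 0.310 and 0.390 FPKM in the controls and 1.07 and 1.64 in ATO. Sema3b and the summed choroid plexus markers were both higher in the 2 ATO libraries than in the 2 controls. Their 4 libraries also fell in the same order, but the order of the Sema3b controls rests on 22 and 28 counts and was not resolved. Of the 20 choroid plexus markers, 1 (Wfdc2) was at 0 counts in a library. Of 10 markers of ependymal cells, which line the ventricles, 7 were higher at an edgeR adjusted p under 0.05, against 2.87% of all genes. In all 10 both ATO libraries lay above both controls (24.8% of all genes). The ependymal sums were 19.9 and 24.0 CPM in the controls and 56.0 and 40.6 in ATO. Of 11 markers of the leptomeninges, the membranes over the brain, 2 were higher at that threshold. All 11 had positive log2 fold changes. Both ATO libraries lay above both controls in 6 of these markers, and the groups overlapped in 5. Their sums were 92.2 and 46.9 CPM against 156 and 96.1, with control replicate 1 close to ATO replicate 2. The part of these cells in the Sema3b result was not tested. In whole tissue, more cells of a type and more RNA per cell cannot be told apart.

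The other class 3 semaphorin genes did not pass. Sema3e, the ligand of plexin-D1 and the most abundant of the class, had 80.4 and 84.6 normalised CPM in the controls and 66.4 and 83.6 in ATO (log2 fold change -0.14 ± 0.10). Sema3d had 5.90 and 5.50 CPM in the controls and 8.32 and 6.02 in ATO (0.33 ± 0.22, adjusted p = 0.455 in edgeR), with 0.079 when ATO replicate 1 was left out and 0.55 when ATO replicate 2 was. Sema3f, a neighbour of Sema3b on chromosome 9, had 1.83 and 3.97 CPM in the controls against 3.16 and 3.73 in ATO, so the ATO libraries lay inside the range of the controls. Its controls differed 2.17-fold, the widest gap between replicates of any guidance gene with a mean of at least 1 CPM.

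The membrane semaphorins of classes 4 to 7 had 13 genes and no call. In edgeR 2 of 13 had an unadjusted p under 0.05, against 18.1% of all genes. Sema4c, a ligand of plexin-B2, had 13.8 and 12.4 CPM in the controls and 8.44 and 10.3 in ATO, a log2 fold change of -0.49 ± 0.16 with an edgeR adjusted p of 0.128. Sema6a, a transmembrane ligand of A-type plexins, had 19.1 and 19.5 CPM in the controls and 16.1 and 13.4 in ATO (-0.39 ± 0.14, adjusted p = 0.141). In both genes the ATO libraries were below both controls, with no adjusted p under 0.05. Sema7a, the most abundant semaphorin here, had 143 and 133 CPM in the controls and 135 and 146 in ATO, and its 95% interval ran from -0.15 to 0.19. Over the 13 genes the log2 fold changes ran from -0.49 for Sema4c to 0.17 for Sema5a.

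None of the neuropilin and plexin genes, which encode receptors of semaphorins, passed. An unadjusted p under 0.05 in edgeR was reached by 0 of 2 neuropilin and 2 of 9 plexin genes, against 18.1% of all genes. The neuropilin genes Nrp1 and Nrp2, co-receptors of class 3 semaphorins, had log2 fold changes of 0.14 ± 0.09 and 0.11 ± 0.09. Nrp1 had 58.1 and 64.8 CPM in the controls and 68.7 and 66.9 in ATO. Plxnb2, the receptor of several class 4 semaphorins, came nearest to the threshold after the 2 genes that passed. It had 54.9 and 61.7 CPM in the controls and 71.9 and 71.7 in ATO, a log2 fold change of 0.30 ± 0.09 with an adjusted p of 0.0709 in edgeR, so both ATO libraries were above both controls without a call. Plxnd1, the plexin-D1 gene, expressed in neurons and vessels, had 21.8 and 28.8 CPM in the controls and 19.7 and 21.0 in ATO (-0.31 ± 0.14, adjusted p = 0.239), and its value ran from -0.0997 without control replicate 2 to -0.50 without control replicate 1. Plxna1, the most abundant plexin gene, had an interval from -0.24 to 0.08, and the 9 plexin genes ran from -0.31 for Plxnd1 to 0.30 for Plxnb2, with a median of -0.0115.

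**Figure D3:**
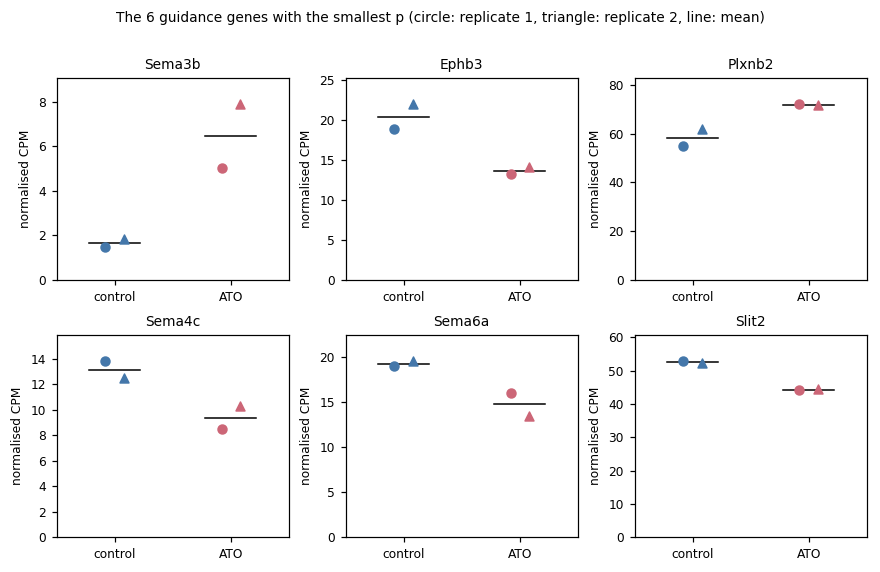
Normalised CPM in each library for the 6 guidance genes with the smallest p; circles are replicate 1, triangles replicate 2 and lines the group means, and each axis starts at 0. In each panel both ATO libraries lie on one side of both controls; Sema3b and Ephb3 passed, and Plxnb2 (adjusted p = 0.0709), Sema4c, Sema6a and Slit2 did not.

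Among the Eph receptors, Ephb3 (ENSMUSG00000005958, chromosome 16 from 21204755 to 21223305, plus strand, GRCm38) encodes a receptor tyrosine kinase for B-type ephrins. It had 277 and 331 counts in control replicates 1 and 2 and 230 and 234 in ATO replicates 1 and 2, although the ATO libraries were the deeper ones. Both ATO libraries were below both controls, at 13.2 and 14.1 normalised CPM against 18.8 and 21.9. The mean went from 20.4 ± 2.21 to 13.6 ± 0.625 CPM (SD, n = 2 per group). This was a log2 fold change of -0.58 with an SE of 0.13, a 95% interval from -0.87 to -0.29 and an edgeR adjusted p of 0.0300. The authors' deposited table gave -0.57 with an adjusted p of 0.0361 and no mark, since every marked gene there also has a log2 fold change above 1 or below -1. The call was lost without control replicate 2 (log2 -0.47, adjusted p = 0.190), without ATO replicate 1 (-0.53, adjusted p = 0.115) and with DESeq2 (-0.58, adjusted p = 0.0858).

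The Ephb3 promoter is shown as that of the guidance gene that fell. RefSeq promoter windows (GRCm38.p6) were matched by symbol for 59 of the 69 genes, Sema3b not among them. The bases below lie before the start of Ephb3 in both RefSeq and GENCODE, at chr16:21204545-21204754 on the plus strand, written 5′ to 3′ with GC boxes (GGGCGG, searched on both strands) in capitals.
Ephb3: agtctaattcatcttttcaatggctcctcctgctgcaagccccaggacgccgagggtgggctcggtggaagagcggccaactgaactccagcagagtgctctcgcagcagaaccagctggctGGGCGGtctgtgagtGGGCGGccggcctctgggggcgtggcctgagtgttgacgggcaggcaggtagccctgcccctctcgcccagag
The 250 bases before the RefSeq start held 2 GC boxes and 65.6% G and C. A GC box was present in 70.7% of the 75 windows of guidance genes and in 32.7% of all 32851 windows. The guidance windows were also richer in G and C (median 64.4% against 52.4%) and in CpG (median 16 against 6). All windows cover 27025 genes, many of them not in the deposited table of 15713. The GC box shares were not matched for base makeup or expression. The E-box CACGTG was in 5.33% of guidance windows and 6.02% of all, the cyclic AMP response element TGACGTCA in 1.33% and 1.55%, and the OTX core TAATCC in 2.67% and 6.25%; none of these 3 was in the Ephb3 window. These are descriptions of letters and not of binding.

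Beside Ephb3, 3 of 10 CA1 markers were lower at an edgeR adjusted p under 0.05, against 0.859% of all genes. Of the 10, 9 had negative log2 fold changes and 1 a positive one. Both ATO libraries lay below both controls in 7 and above in 0 (23.4% and 24.8% of all genes). The CA1 sums were 918 and 931 CPM in the controls and 644 and 881 in ATO. Of the markers of inhibitory interneurons 1 of 10 passed as lower (sums of 939 and 1021 against 832 and 887). In 8 of these 10 both ATO libraries lay below both controls, and in 0 above. The endothelial (1 of 12), oligodendrocyte (1 of 10), oligodendrocyte precursor (1 of 6) and neocortical (1 of 7) lists each had 1 marker that passed as lower. The part of any of these cells in the Ephb3 result was not tested. No marker in these lists was at 0 in a library.

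**Figure D4:**
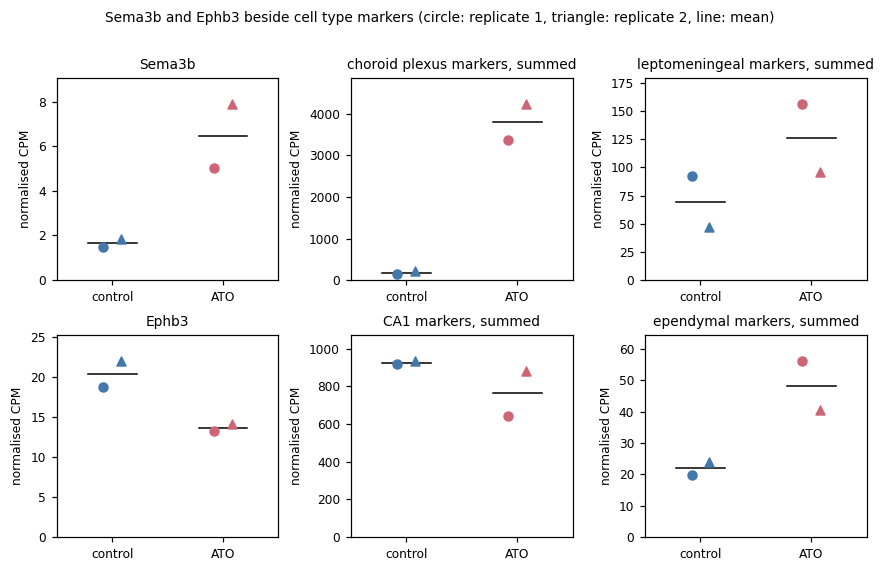
Normalised CPM of Sema3b and Ephb3 in each library beside the summed CPM of 4 marker lists (choroid plexus, leptomeningeal, CA1 and ependymal); circles are replicate 1, triangles replicate 2 and lines the group means, and each axis starts at 0. Sema3b and the choroid plexus sum are both higher in the 2 ATO libraries, and the CA1 sum of ATO replicate 1 is the lowest of the 4 libraries.

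The other EphB receptor genes did not pass. Ephb6, whose kinase domain is inactive and which is the most abundant of the family, had 74.2 and 82.0 CPM in the controls and 63.6 and 68.7 in ATO, a log2 fold change of -0.24 ± 0.09 with an edgeR adjusted p of 0.149. Ephb1, Ephb2 and Ephb4 had log2 fold changes of 0.03, -0.00 and 0.12, with ATO libraries that overlapped the controls. Ephb3 and Ephb6 thus lay below both controls in both ATO libraries, and the other 3 genes of the family did not.

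The ligands of these receptors, the B-type ephrins, showed no call. In edgeR 1 of 3 had an unadjusted p under 0.05, against 18.1% of all genes. Efnb2, the ephrin-B2 gene, known from neurons and arteries, had 41.2 and 42.6 CPM in the controls and 38.1 and 34.3 in ATO (log2 fold change -0.21 ± 0.10, adjusted p = 0.273). Efnb3 had 158 and 162 CPM in the controls and 176 and 159 in ATO, with an interval from -0.10 to 0.23. Efnb1 ranged from 10.8 to 14.4 CPM in the controls and from 12.7 to 15.4 in ATO. The ATO libraries were below both controls for Efnb2 and overlapped them for the other 2.

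EphA receptors and A-type ephrins, which bind each other and guide topographic maps, also showed no call. An unadjusted p under 0.05 in edgeR was reached by 2 of 8 receptors and 0 of 4 ligands, against 18.1% of all genes. Epha4, expressed by hippocampal neurons and known for its part in dendritic spines, had 327 and 330 CPM in the controls and 293 and 295 in ATO. Its replicates differed 1.007-fold in each group, and the groups by a log2 fold change of -0.16 ± 0.07 with an adjusted p of 0.254 in edgeR. Epha10, a receptor without kinase activity, had 48.8 and 58.1 CPM in the controls and 44.3 and 46.2 in ATO (-0.24 ± 0.10, adjusted p = 0.215), with -0.11 when control replicate 2 was left out and -0.36 when control replicate 1 was. The summed EphA level was 81.1 and 83.2 FPKM in the controls and 73.6 and 76.7 in ATO, below both controls in both ATO libraries; Epha4 alone was 40.3 and 40.9 of it in the controls and 36.65 and 36.4 in ATO. The 8 EphA genes ran from -0.24 for Epha10 to 0.44 for Epha8. Among the A-type ephrins Efna3, the most abundant, had a log2 fold change of 0.01 ± 0.08, Efna2 had 0.25 ± 0.17 and Efna5 -0.05 ± 0.22.

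Slits and Robos had no call. In edgeR 1 of 3 Slit genes and 2 of 4 Robo genes had an unadjusted p under 0.05, against 18.1% of all genes. The 2 Robo genes, Robo3 and Robo4, went opposite ways, with log2 fold changes of -0.36 and 0.54. Slit2, a secreted repellent, had 52.8 and 52.3 CPM in the controls and 44.1 and 44.5 in ATO, a log2 fold change of -0.25 ± 0.09 with an adjusted p of 0.144; the replicates were much closer to each other than the groups. Slit1, at a far higher level per length, had 255 and 257 CPM in the controls and 244 and 254 in ATO (-0.04 ± 0.07). Robo3, a Robo receptor that in mammals binds Slits only weakly, had 34.1 and 46.0 CPM in the controls and 28.8 and 33.5 in ATO, a log2 fold change of -0.36 ± 0.13 with an adjusted p of 0.154 in edgeR. It ranged from -0.14 without control replicate 2 to -0.56 without control replicate 1, where it passed (adjusted p = 0.0319), and it also passed without ATO replicate 2 (adjusted p = 0.0354).

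Robo4, the Robo gene of blood vessel endothelium, had the widest range of the family. It had 8.14 and 4.70 CPM in the controls and 8.15 and 10.5 in ATO, a log2 fold change of 0.54 ± 0.24 with an adjusted p of 0.252 in edgeR. Control replicate 1 and ATO replicate 1 were nearly equal, and the log2 fold change came to 0.19 once control replicate 2 was left out and to 0.99 once control replicate 1 was. At an edgeR adjusted p under 0.05, 1 of 12 endothelial markers was lower and 0 higher (0.859% and 2.87% of all genes). By sign, 7 of the 12 log2 fold changes were positive and 5 negative. The endothelial sums were 383 and 302 CPM in the controls and 328 and 318 in ATO. Robo4 lies 553 bases from Robo3 on chromosome 9, on the opposite strand with the 3′ ends facing each other, and no source used here says whether counting used strand.

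Netrins and their receptors had no call and no unadjusted p under 0.05 in edgeR (0 of 6 and 0 of 5 genes, against 18.1% of all genes). Ntn1, the netrin-1 gene, had 9.77 and 10.0 CPM in the controls and 8.15 and 7.16 in ATO, a log2 fold change of -0.37 ± 0.18 with an adjusted p of 0.289 in edgeR. Ntn3 had 9.50 and 10.9 CPM against 7.29 and 9.27 (-0.30 ± 0.18), with -0.14 when ATO replicate 1 was left out and -0.49 when ATO replicate 2 was. In both genes the ATO libraries lay below both controls. Ntng2, which encodes netrin-G2, a membrane-anchored relative that acts at synapses, was the most abundant of the group and had an interval from -0.25 to 0.14. Ntn4, which encodes netrin-4, was the 1 gene of these 6 with a positive value, 0.29 ± 0.24.

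On the receptor side Dcc, the attractive netrin receptor, had 41.3 and 36.4 CPM in the controls and 42.9 and 38.2 in ATO (0.06 ± 0.10). Unc5a, the most abundant UNC5 gene, had an interval from -0.09 to 0.24. Unc5c had 53.4 and 43.2 CPM in the controls and 56.2 and 54.5 in ATO (0.20 ± 0.10), with 0.048 when control replicate 2 was left out and 0.36 when control replicate 1 was. Unc5d had 30.7 and 27.5 against 29.6 and 20.6 (-0.21 ± 0.14). All 5 intervals of this family lay within 1.5-fold.

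Genes that act with or downstream of these receptors were taken from 6 lists: other cues and co-receptors, semaphorin and plexin signalling, Eph signalling, Slit and Robo signalling, netrin signalling, and the shared GTPases and actin regulators. Of 89 genes, 88 were tested, and 0 passed the threshold in edgeR, limma-voom and DESeq2. An unadjusted p under 0.05 was reached by 12, 11 and 8 of the 88. In edgeR 3.73% of all genes passed and 18.1% had an unadjusted p under 0.05. The shares of all genes with an unadjusted p under 0.05 in limma-voom and DESeq2 are not given here. The median log2 fold change was -0.01 over the 88 genes, and the medians of the single lists ran from -0.04 to 0.03. The smallest adjusted p was that of Cables1, an adaptor linked to Robo and Abl signalling, at 0.0601 (log2 fold change 0.49 ± 0.13). Itsn1, an exchange factor for Cdc42 that acts with EphB2, had 0.26 ± 0.08 and an adjusted p of 0.0793 in edgeR. Cables1 and Itsn1 were chosen after their values were seen.

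Several members share exon bases with another annotated gene, 17 of the 69 in all, among them Efna3, Epha10, Nrp1, Ntn3, Ntng2, Plxna1, Sema4c, Unc5a and Unc5c named above. Reads there could be split or shared.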

How the data were processed

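The submitters' processing notes name limma 3.47.15, R 4.1.0, HTSeq 0.6.1, HISAT2 2.0.1, cutadapt 1.9.1, FastQC 0.10.1 and the build GRCm38; the role and settings of each, and strand, are not stated there. Per the file headers the deposited table holds counts and FPKM per library, and the authors' log2 fold change, p-value and adjusted p-value. The deposited FPKM equalled counts per length of merged GENCODE vM21 exons and library total to within about 0.2% (median ratio 1.002), so they were used to compare genes.

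The test of the counts was edgeR's (version 4.0.16, R 4.3.3), with filterByExpr removing 0 genes, TMM factors between 0.994 and 1.0098, the quasi-likelihood F-test for the group term, no covariate, Benjamini-Hochberg adjustment over 15713 genes. Normalised CPM use TMM-scaled library sizes. SE is the log2 fold change over the square root of F. The 95% intervals use the test's degrees of freedom, which include those gained by pooling spread across genes. The common dispersion was 0.00513 (biological coefficient of variation 7.16%). One count is worth 0.0580 to 0.0674 CPM. The script was tested on simulated counts.

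Members and lists were chosen with earlier results of these data known. Named are the genes that passed; per family the 2 with the smallest p and the one with the highest FPKM; and the 2 with the widest replicate gap (Sema3f, Robo4); and pathway genes that passed (0). Others are values for comparison. Alternatives were RLE factors, library size only, other filters, limma-voom 3.58.1, DESeq2 1.42.0, each library left out, a replicate block, and library sizes without choroid plexus markers. No pairing was assumed, since the labels give only replicate numbers. Same-numbered libraries deviated together only weakly (correlation 0.0877), which cannot exclude a shared batch in some genes.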

Additional observations from a re-analysis of the deposited data

How the results depend on the processing

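Of 15713 genes, 586 passed in edgeR with all libraries; 316 passed in DESeq2's Wald test, and leaving out each library in turn gave 222 (without control replicate 2) to 611. Of the guidance genes 1 passed in DESeq2's Wald test, and 1 to 3 passed with each library left out; Ephb3 was lost without control replicate 2 and without ATO replicate 1. Sema3b passed in all 12 alternatives. Of these, the fit with no filter is no separate check: filterByExpr removed 0 genes, so it equals the main fit. With the replicate number as a block, 1366 genes passed, with 5 guidance genes (2 higher, 3 lower) and 7 pathway genes, against 0 pathway genes without it; the guidance genes added were Ephb6, Plxnb2 and Robo3. The labels give a replicate number and do not say whether it pairs libraries, so the block is not known to be a pairing. With each library left out, 0 to 2 pathway genes passed. The median log2 fold change of the guidance genes ran from -0.0437 (without control replicate 1) to -0.0051 with each library left out, and was -0.0044 with library size only, the highest value of all alternatives. Leaving out libraries changed the sign, with no call, of Efna3 (-0.014 to 0.032), Efna5 (-0.29 to 0.16), Efnb1 (-0.029 to 0.38), Efnb3 (-0.012 to 0.14), Nrp2 (-0.0052 to 0.21), Ntng2 (-0.13 to 0.013), Sema3e (-0.31 to 0.019), Sema3f (-0.20 to 0.90), Sema7a (-0.036 to 0.078), Unc5a (-0.0017 to 0.14) and Unc5d (-0.49 to 0.023); the ranges are log2 fold changes over the 4 fits. A fit with 1 library in a group takes its spread from the other group. No alternative scaling (RLE factors, library size only, library sizes without choroid plexus markers) changed a sign or a call of the 32 named guidance genes. The intervals of Epha2 and Epha8, with 19 to 53 counts per library, and of Robo4, whose controls differed 1.73-fold, reach past 2-fold.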

Other observations

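The genes next to Sema3b on chromosome 9 had smaller values than Sema3b and did not pass. Ifrd2, 4288 bases away on the other strand, had control counts of 85 and 98 and ATO counts of 151 and 144 (log2 fold change 0.50 ± 0.19, adjusted p = 0.174 in edgeR). Gnai2, a G protein gene 4895 bases away on the same strand, had a log2 fold change of 0.02 ± 0.07. Slc38a3, a glutamine transporter gene farther along, had control counts of 614 and 649 and ATO counts of 861 and 948 (0.33 ± 0.10, adjusted p = 0.0746). These genes were chosen after the Sema3b result was seen.

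Markers of other cells the tissue could hold gave the following. Here higher and lower mean an edgeR adjusted p under 0.05, reached by 2.87% and 0.859% of all genes. Dentate granule markers were higher in 2 of 10 cases, with sums of 591 and 510 CPM in the controls and 724 and 634 in ATO. CA3 and CA2 markers were higher in 0 of 10 (588 and 583 against 601 and 586). By sign, 9 of 10 dentate granule and 7 of 10 CA3 and CA2 log2 fold changes were positive. Both ATO libraries lay above both controls in 6 dentate granule and 4 CA3 and CA2 markers (24.8% of all genes). They lay below in 1 and 2 (23.4%). Astrocyte markers were higher in 1 of 10, oligodendrocyte markers lower in 1 of 10, and microglial markers were called in 0 of 10 (1 had an unadjusted p under 0.05 in edgeR). Of 6 markers of oligodendrocyte precursors 1 was higher and 1 lower. Among markers of neighbouring regions, 1 of 8 thalamic and 2 of 8 striatal markers were higher and 1 of 7 neocortical markers was lower, with sums in the thalamic list of 110 and 126 CPM in the controls and 130 and 124 in ATO.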
